A study of Mus musculus with 6 samples.

Results

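Predicted mouse genes carry a placeholder name, Gm and a number, until a curated symbol replaces it. In the deposited expression table of ileal crypts, 135 of 7120 gene names consisted of Gm and digits alone, and these 135 names are the genes described here. All were taken by name, with no value used to pick single genes. The group itself was chosen with earlier results of these data known. Among them, 134 matched a current RefSeq gene entry of the assembly GRCm38.p6, directly or as a synonym, and Gm14430 did not. Of the matched names, 10 now have an alpha-defensin symbol (Defa) and 20 have another symbol of their own. The other matched names are still Gm, with 28 protein-coding genes, 47 non-coding RNA genes and 29 pseudogenes.

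Crypts are the pockets at the base of the intestinal villi where stem cells divide, and in the small intestine their floor is lined by Paneth cells. Paneth cells secrete alpha-defensins, small cationic peptides that kill bacteria, together with lysozyme and other antimicrobial proteins. In the mouse the alpha-defensins form a large gene cluster of close copies, and several of them were first annotated under placeholder names.

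The study compared mice that carry a Tl1a transgene (Tl1a-tg, 3 libraries) with wild-type mice (WT, 3 libraries), all C57BL/6 and 3 months old. Tl1a (Tnfsf15) belongs to the cytokines of the TNF family. Crypts were laser-microdissected from methacarn-fixed, paraffin-embedded ileum, and stranded mRNA libraries were sequenced. The promoter and the cells that drive the transgene are not described in the labels, and separate mice per library are not stated either, so any spread between samples behind the p-values may be technical.

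The deposited signal is a fitted value. In each genotype all genes kept the same ratio between libraries, so a gene has 1 fitted mean per genotype, multiplied by 1 factor per library. The factors were 1.01, 1.10 and 0.781 for the Tl1a-tg libraries and 1.34, 0.591 and 1.46 for the WT libraries. Values per library therefore differ within a genotype only through these factors, and no standard deviation over replicates can be given. Signal summed to between 376022 and 530625 per Tl1a-tg library and between 314186 and 774249 per WT library. These are not read totals, and the sequencing depth is unknown. Below, a fitted mean is the signal at a library factor of 1. A genotype with a fitted mean at a floor (0.193 in Tl1a-tg, 0.176 in WT) or near 0 (below 0.01) was taken as having no reads, which is inferred from the values.

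Markers of crypt epithelium were read in both genotypes for 4 of 6 genes, while Krt18 and Krt19 were read in Tl1a-tg only, at 127 and 108. Summed fitted means of all 6 genes, Krt18 and Krt19 included, were 1083 in Tl1a-tg, against 823 in WT. Muc2, the main goblet cell mucin, had fitted means of 12552 in Tl1a-tg, against 13390 in WT, while the goblet genes Agr2 and Fcgbp were each read in 1 genotype only (Agr2 at 186 in Tl1a-tg, Fcgbp at 1.08 in WT). The 3 listed stem cell genes summed to 924 in Tl1a-tg, against 767 in WT. Lgr5 had 131 in Tl1a-tg, against 0.342 in WT, while Olfm4 and Smoc2 had 677 and 116 in Tl1a-tg, against 679 and 87.2 in WT. For 2 enterocyte genes the sums were 81.5 in Tl1a-tg, against 45.4 in WT. Among markers of other cells, 2 T cell genes summed to 8.63 in Tl1a-tg, against 166 in WT, where Cd8b1 alone had 128. The sums were 19.4 in Tl1a-tg, against 197 in WT, for 2 tuft cell genes, and 29.1 in Tl1a-tg, against 114 in WT, for 3 enteroendocrine genes. They were 200.0 in Tl1a-tg, against 54.6 in WT, for 3 fibroblast genes, and 11.8 in Tl1a-tg, against 79.0 in WT, for 3 myeloid genes. None of the 5 B and plasma cell markers was listed. The part of these cells in the values below was not tested. In bulk crypts, fewer cells of a type and less RNA per cell cannot be told apart.

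By fitted mean, the most abundant predicted genes were alpha-defensins by their current symbol. The 5 with the highest mean of both genotypes were Gm15284 (Defa30), Gm7849 (Defa42), Gm14851 (Defa38), Gm21498 (Defa36) and Gm15308 (Defa32), and they held 72.9% of the summed fitted mean of all 135 genes in Tl1a-tg, against 72.3% in WT. All 10 genes with a Defa symbol summed to 13968 in Tl1a-tg, against 14455 in WT, or 74.8% and 76.8% of the 135-gene sum in Tl1a-tg and in WT. The 135 genes together took 3.88% of all fitted signal in Tl1a-tg, against 3.54% in WT. Ranked instead by the mean in the authors' deposited table, 1 of the first 5 genes had a Defa symbol, Gm15284 at 997, with Gm17821 at 1168, Gm10408 at 905, Gm20172 at 800.0 and Gm20753 at 646.

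Because these genes are near-copies, their sequences are shown first. All 10 lie on chromosome 8. Pairwise identity of their coding sequences (GENCODE M21, GRCm38) ran from 66.2% to 100% with a median of 82.5%. Gaps count as differences in this identity, and the annotated lengths ran from 282 to 351 bases. The most abundant predicted gene, Gm15284, differs in 4 of 282 coding bases from Defa24, the Paneth cell product with the highest level per length here. Capitals mark the differing bases.
Gm15284: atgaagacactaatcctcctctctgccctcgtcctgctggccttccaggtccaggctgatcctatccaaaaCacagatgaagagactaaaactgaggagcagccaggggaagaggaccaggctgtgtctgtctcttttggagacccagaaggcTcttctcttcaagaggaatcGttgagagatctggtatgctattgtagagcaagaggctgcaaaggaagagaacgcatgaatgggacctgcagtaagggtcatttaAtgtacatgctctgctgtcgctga
Defa24: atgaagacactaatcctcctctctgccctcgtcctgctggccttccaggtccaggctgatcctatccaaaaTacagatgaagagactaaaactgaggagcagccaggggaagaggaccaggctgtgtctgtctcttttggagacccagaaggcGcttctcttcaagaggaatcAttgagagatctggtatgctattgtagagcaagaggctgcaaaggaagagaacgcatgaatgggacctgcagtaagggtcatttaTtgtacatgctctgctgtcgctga

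Gm15308 and Gm21002 (Defa33) differ from each other in 1 of 288 coding bases, marked by a capital. Their coding sequences are identical to those of Defa20 and Defa2, in that order, so the 4 genes hold only 2 coding sequences. The annotated transcripts of Gm15308 and Defa20 differ at 1 of 425 aligned positions, and those of Gm21002 and Defa2 at 1 of 426.
Gm15308, identical to Defa20: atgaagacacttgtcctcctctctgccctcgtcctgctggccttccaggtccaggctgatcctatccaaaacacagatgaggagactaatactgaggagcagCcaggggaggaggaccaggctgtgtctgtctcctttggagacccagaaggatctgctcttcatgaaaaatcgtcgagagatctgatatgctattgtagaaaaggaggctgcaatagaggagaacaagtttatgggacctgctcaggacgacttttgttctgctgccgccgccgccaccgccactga
Gm21002, identical to Defa2: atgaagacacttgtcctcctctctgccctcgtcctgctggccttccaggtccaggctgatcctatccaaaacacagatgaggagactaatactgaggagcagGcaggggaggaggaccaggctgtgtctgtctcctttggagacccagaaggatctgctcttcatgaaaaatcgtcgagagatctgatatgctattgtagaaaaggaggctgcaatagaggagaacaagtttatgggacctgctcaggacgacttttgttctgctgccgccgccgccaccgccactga

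Gm21498 and Gm14850 (Defa37) have 1 and the same coding sequence of 282 bases. Their annotated transcripts of 420 and 403 bases differ in 17 aligned positions. All of these are bases absent from the shorter transcript, with no base substituted.
Gm21498 and Gm14850: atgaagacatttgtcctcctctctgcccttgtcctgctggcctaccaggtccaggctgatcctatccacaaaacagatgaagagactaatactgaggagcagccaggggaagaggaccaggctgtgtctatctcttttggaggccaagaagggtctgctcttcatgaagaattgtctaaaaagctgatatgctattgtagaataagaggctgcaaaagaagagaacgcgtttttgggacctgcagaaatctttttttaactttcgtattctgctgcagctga

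Gm7849 and Gm14851 form a separate pair with a longer annotated coding sequence of 351 bases, 13 of which differ. Their nearest Defa-named genes in the table, Defa17 and Defa26, have shorter coding sequences of 282 bases. Identity was 68.7% for Gm7849 with Defa17 and 68.9% for Gm14851 with Defa26. Bases without a partner, which the unequal lengths require, count as differences in these shares. The first 120 coding bases are shown, with the 3 differences there in capitals.
Gm7849: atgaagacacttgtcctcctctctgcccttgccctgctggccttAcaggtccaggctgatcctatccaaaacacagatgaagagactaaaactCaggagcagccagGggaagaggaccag
Gm14851: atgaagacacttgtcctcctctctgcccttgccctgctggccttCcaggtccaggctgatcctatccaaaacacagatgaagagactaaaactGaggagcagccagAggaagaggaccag

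Promoters (250 bases before to 50 after the annotated start, RefSeq, GRCm38.p6) were at hand for 7 of the 10 genes. They were searched on both strands for TATAAA, a core of the TATA box, and for ATCAAAG (reverse complement CTTTGAT), the core letters recognised by the TCF factors of the Wnt pathway. TATAAA was in 6 of the 7 promoters, and in 13.6% of all 32851 promoters in that table. ATCAAAG was in 5 of the 7, against 3.73% of all promoters, and was not in the windows of Gm14851 and Gm7849. Among the 16 promoters of genes with a Defa symbol, these 7 included, 15 held TATAAA and 13 held ATCAAAG. Neither motif is thus particular to the predicted genes. In Gm15284, Gm21498, Gm15308 and Gm14850 an ATCAAAG began 81 bases before TATAAA. Neither match shows that a factor binds. The windows around the motifs are shown with both motifs in capitals. The whole 300-base promoters of Gm21498 and Gm14850 did not differ at any base, and those of Gm7849 and Gm14851 differed at 8.
Gm15284 (Defa30), chr8:21134499-21134610, + strand: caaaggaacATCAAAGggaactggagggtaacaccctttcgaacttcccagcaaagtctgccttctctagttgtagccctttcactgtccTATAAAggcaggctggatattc
Gm21498 (Defa36), chr8:21427292-21427403, + strand: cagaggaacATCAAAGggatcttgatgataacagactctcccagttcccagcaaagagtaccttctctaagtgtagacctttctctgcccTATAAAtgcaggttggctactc
Gm15308 (Defa32), chr8:21528911-21529022, + strand: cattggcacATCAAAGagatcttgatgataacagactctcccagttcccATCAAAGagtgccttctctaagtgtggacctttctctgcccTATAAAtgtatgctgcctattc
Gm7849 (Defa42), chr8:21456570-21456681, - strand: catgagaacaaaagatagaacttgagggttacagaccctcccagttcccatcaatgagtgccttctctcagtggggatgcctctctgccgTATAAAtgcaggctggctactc
Gm14851 (Defa38), chr8:21096103-21096214, - strand: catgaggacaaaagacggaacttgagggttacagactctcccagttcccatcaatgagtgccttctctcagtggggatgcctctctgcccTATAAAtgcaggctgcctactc

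Gm15284 (Defa30) had signals of 5551, 6057 and 4292 in the Tl1a-tg libraries, against 6769, 2997 and 7385 in the WT libraries. The ranges overlapped, and the fitted means were 5496 in Tl1a-tg, against 5069 in WT. Here and below, whether ranges overlap follows from the fitted means and the library factors. It does not describe measured replicates. The authors' deposited table gave a log2 fold change (Tl1a-tg over WT) of 0.12 ± 1.99 (SE, DESeq2), with a p-value of 0.953. Its 95% interval, from -3.78 to 4.01, holds differences of several fold in either direction, so a similar level in both genotypes was not shown.

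Gm14851 (Defa38) had signals of 2348, 2562 and 1816 in the Tl1a-tg libraries, against 2830, 1253 and 3088 in the WT libraries. Gm7849 (Defa42), its near-copy, had 2200, 2401 and 1701 in the Tl1a-tg libraries, against 4507, 1995 and 4917 in the WT libraries. The library ranges overlapped for both genes. Fitted means of Gm7849 were 2178 in Tl1a-tg, against 3375 in WT, and those of Gm14851 were 2325 in Tl1a-tg, against 2119 in WT. The authors' deposited table gave log2 fold changes of -0.63 ± 2.28 for Gm7849 and 0.13 ± 2.02 for Gm14851 (SE, DESeq2), both with an adjusted p-value of 0.999.

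**Figure D1:**
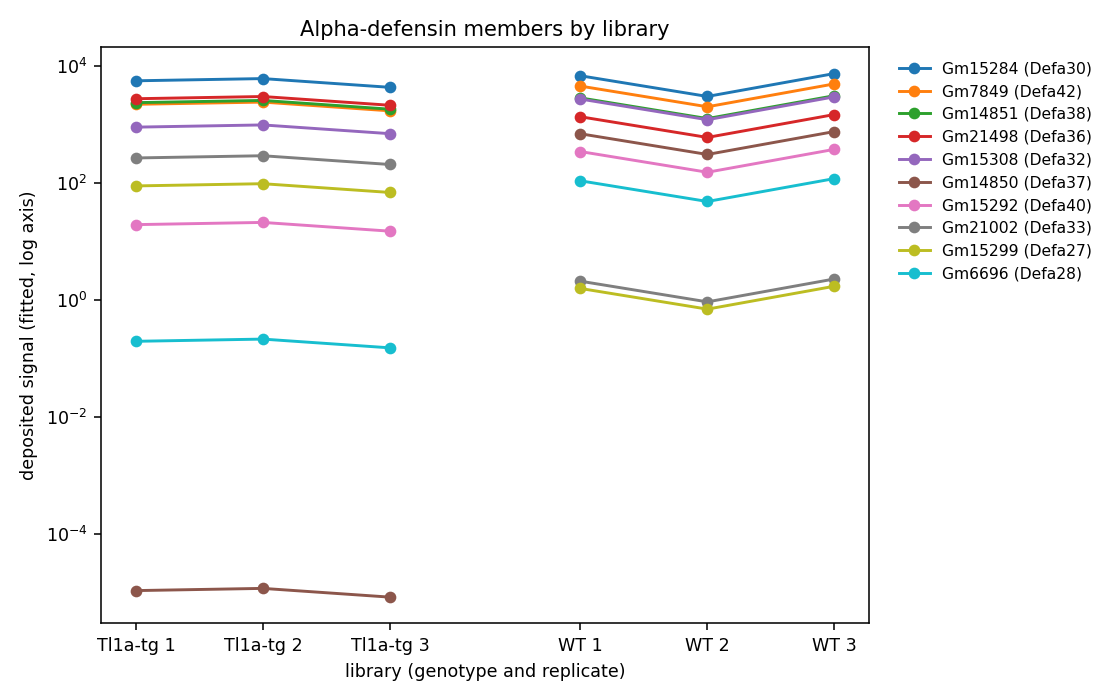
Deposited signal (log axis) of the 10 predicted genes that now have an alpha-defensin symbol, in the 3 Tl1a-tg libraries (left) and the 3 WT libraries (right). Lines join the libraries of a genotype and run in parallel because the signal is 1 fitted mean times a library factor. Gm15284 is the uppermost gene in every library, Gm14850 is near 0 in Tl1a-tg, and Gm6696 is at the floor in Tl1a-tg.

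The pair with a single coding sequence was split unevenly between the genotypes. Gm21498 (Defa36) had signals of 2739, 2989 and 2118 in the Tl1a-tg libraries, against 1347, 597 and 1470 in the WT libraries, and these ranges did not overlap. Gm14850 (Defa37) was near 0 in the Tl1a-tg libraries and had 689, 305 and 752 in the WT libraries. Since a value within a genotype varies only by the library factor, separation of the ranges is a property of the fitted means and not of measured replicates. The authors' deposited table gave a log2 fold change of 1.43 ± 3.03 for Gm21498 (SE, DESeq2, adjusted p-value 0.999) and no p-value for Gm14850. The deposited values do not show why a p-value is missing, or whether a single library drove a fitted mean. Gm21498 and Gm14850 summed to a fitted mean of 2712 in Tl1a-tg, against 1525 in WT, a log2 ratio of 0.83. This sum leaves out Defa5, which differs from both in 4 of 282 coding bases. Defa5 had the larger fitted mean in WT, with 1285 in Tl1a-tg, against 1683 in WT.

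The group of 4 genes with at most 1 differing coding base was also split unevenly. Gm15308 (Defa32) had signals of 895, 976 and 692 in the Tl1a-tg libraries, against 2708, 1199 and 2954 in the WT libraries. Gm21002 (Defa33) had 266, 290 and 206 in the Tl1a-tg libraries, against 2.08, 0.920 and 2.27 in the WT libraries. The larger values were thus in WT for Gm15308 and in Tl1a-tg for Gm21002, with no overlap of the fitted values for either gene. The authors' deposited table gave log2 fold changes of -1.19 ± 2.62 for Gm15308 (SE, DESeq2, adjusted p-value 0.999) and 7.40 ± 4.03 for Gm21002 (SE, no p-value). Their partners Defa2 and Defa20 had fitted means of 7057 and 6491 in Tl1a-tg, against 9132 and 4361 in WT. Summed over Defa2, Defa20, Gm15308 and Gm21002, the fitted means were 14697 in Tl1a-tg, against 15523 in WT, a log2 ratio of -0.08. Over all 22 alpha-defensin genes with a coding sequence at hand, the sums were 61222 in Tl1a-tg, against 61794 in WT, a log2 ratio of -0.01. The sums have no replicate error and were not tested. RSEM, named in the submitters' processing notes, splits reads that fit several transcripts by a statistical estimate. Neither label nor header gives its settings, and values of single copies are uncertain.

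**Figure D2:**
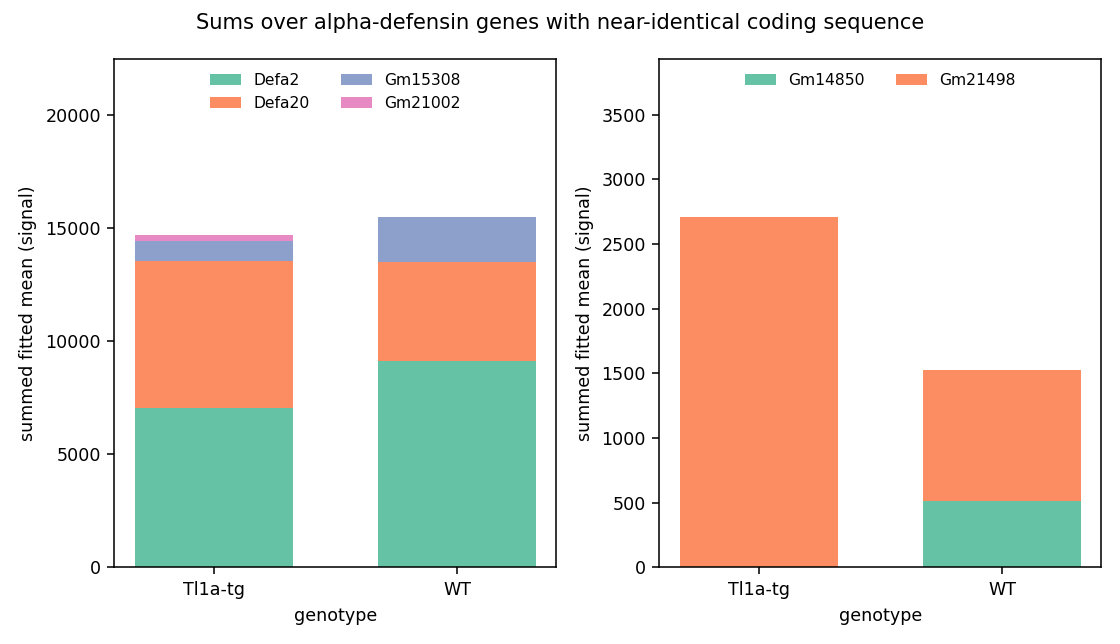
Summed fitted mean (signal, linear axis from 0) in Tl1a-tg (left bar) and WT (right bar) for the 4 genes with at most 1 differing coding base (left panel) and for the pair Gm14850 and Gm21498 (right panel), each segment being 1 gene. The 4-gene sums are 14697 in Tl1a-tg, against 15523 in WT, while the segments differ in share, and the pair sums are 2712 in Tl1a-tg, against 1525 in WT.

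The other 3 alpha-defensin genes had lower means than the 5 most abundant ones. Gm15292 (Defa40) had fitted means of 19.1 in Tl1a-tg, against 256 in WT, and the authors' deposited table gave a log2 fold change of -3.75 ± 4.25 (SE, DESeq2, adjusted p-value 0.929). Its nearest copy Defa26, with 6 differences over 282 aligned bases, had 479 in Tl1a-tg, against 373 in WT. Gm15292 and Defa26 summed to 498 in Tl1a-tg, against 629 in WT. Gm15299 (Defa27) had 87.6 in Tl1a-tg, against 1.17 in WT, with 6.23 ± 4.32 in the authors' deposited table (SE, DESeq2, adjusted p-value 0.444). Gm6696 (Defa28), nearest in sequence to Gm15299 with 13 differences over 288 aligned bases, was at the floor in Tl1a-tg and had 81.0 in WT. None of the 10 genes passed the test, and 7 of them had an adjusted p-value. Over the whole table, 61 of the 1662 genes with an adjusted p-value passed (3.67%). At that share, the lack of a call among 7 genes is not a result about alpha-defensins.

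Levels were set beside those of Paneth cell products per kilobase of transcript, using the median annotated transcript length of each gene. Gm15284 had 13810 per kb in Tl1a-tg, against 12735 in WT. Among the Paneth cell products, Defa24, Defa17, Defa2 and Defa23 had a higher mean per kb, with Defa24 at 28124 in Tl1a-tg, against 28407 in WT. Next below Gm15284 was Defa20, at 15273 per kb in Tl1a-tg, against 10261 in WT. Gm14851 stood beside Itln1, a lectin of Paneth and goblet cells, which had 5097 per kb in Tl1a-tg, against 6936 in WT. Gm7849 stood beside Defa22, Gm21498 beside Lyz1 (Paneth cell lysozyme), and Gm15308 beside Defa21. The files give no error for a difference between genes, so the order of neighbours is a description only. The 22 Paneth cell products in the table summed to 68297 in Tl1a-tg, against 72093 in WT. Of these, 20 had an adjusted p-value, and none passed the test in either direction (DESeq2, no p-value below 0.05). Over the whole table, 3.67% of genes with an adjusted p-value passed, and 14.6% of genes with a p-value were below 0.05 unadjusted. No gene of the whole table with fitted means of at least 10 in both genotypes, as 20 of the 22 had, was below 0.05.

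**Figure D3:**
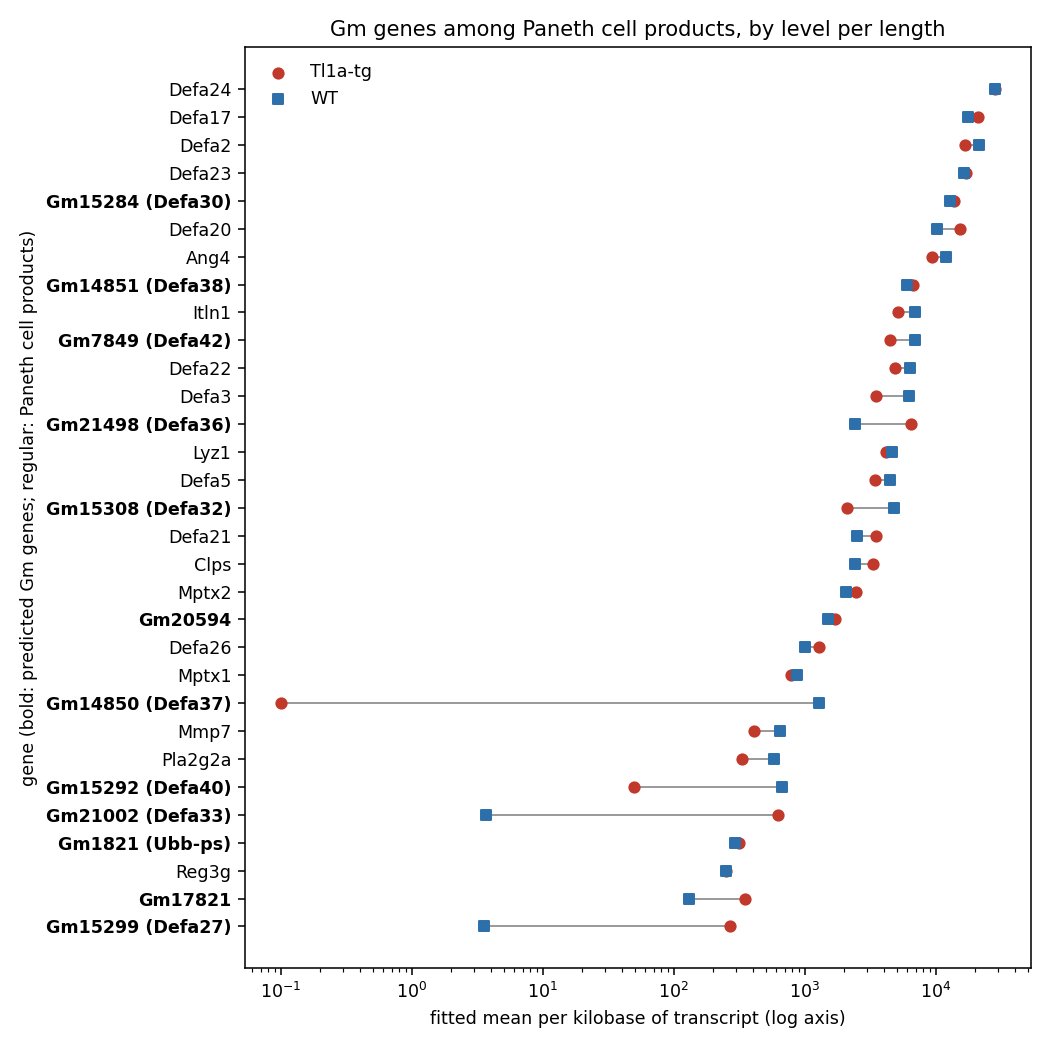
Fitted mean per kilobase of transcript (log axis) of 31 genes in Tl1a-tg (red circles) and WT (blue squares), ordered by the mean of both, with predicted Gm genes in bold and Paneth cell products in regular type. Values below 0.1 are drawn at 0.1. Gm15284 lies just below Defa23, and the Gm14850, Gm21002, Gm15292 and Gm15299 lines are long because the genotypes' fitted means lie far apart.

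Outside the alpha-defensins, no gene reached the level of the 5 most abundant ones. Gm20594, whose synonym Mtrnr2l is in humans the name of nuclear copies of the mitochondrial large ribosomal RNA gene, had signals of 772, 842 and 597 in the Tl1a-tg libraries, against 896, 397 and 978 in the WT libraries. Gm17821, a pseudogene, had 599, 653 and 463 in the Tl1a-tg libraries, against 297, 131 and 324 in the WT libraries. The ranges overlapped for Gm20594 and not for Gm17821, for which the authors' deposited table gave a log2 fold change of 1.41 ± 2.16 (SE, DESeq2, adjusted p-value 0.999). Gm4841, with the synonym Ifgga3 of an interferon-inducible GTPase, had fitted means of 332 in Tl1a-tg, against 321 in WT. Gm4070, with the synonym VLIG-1 of a very large interferon-inducible GTPase, had 138 in Tl1a-tg, against 36.0 in WT. Gm1821 is now Ubb-ps, a ubiquitin pseudogene, and had 225 in Tl1a-tg, against 211 in WT.

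Of the remaining abundant names, Gm608 is now Usf3, a basic helix-loop-helix protein gene, with 124 in Tl1a-tg, against 251 in WT. Gm15800 is now Hectd4, a gene for a HECT-domain protein of the ubiquitin ligase type, with 92.9 in Tl1a-tg, against 245 in WT. The protein-coding Gm10408 had 216 in Tl1a-tg, against 111 in WT, and the pseudogene Gm6793 had 67.4 in Tl1a-tg, against 184 in WT. None of these 4 genes passed the test, with adjusted p-values of 0.999 in the authors' deposited table (DESeq2). The non-coding RNA genes Gm17644 and Gm20337 had 138 and 57.6 in Tl1a-tg, against 141 and 111 in WT.

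**Figure D4:**
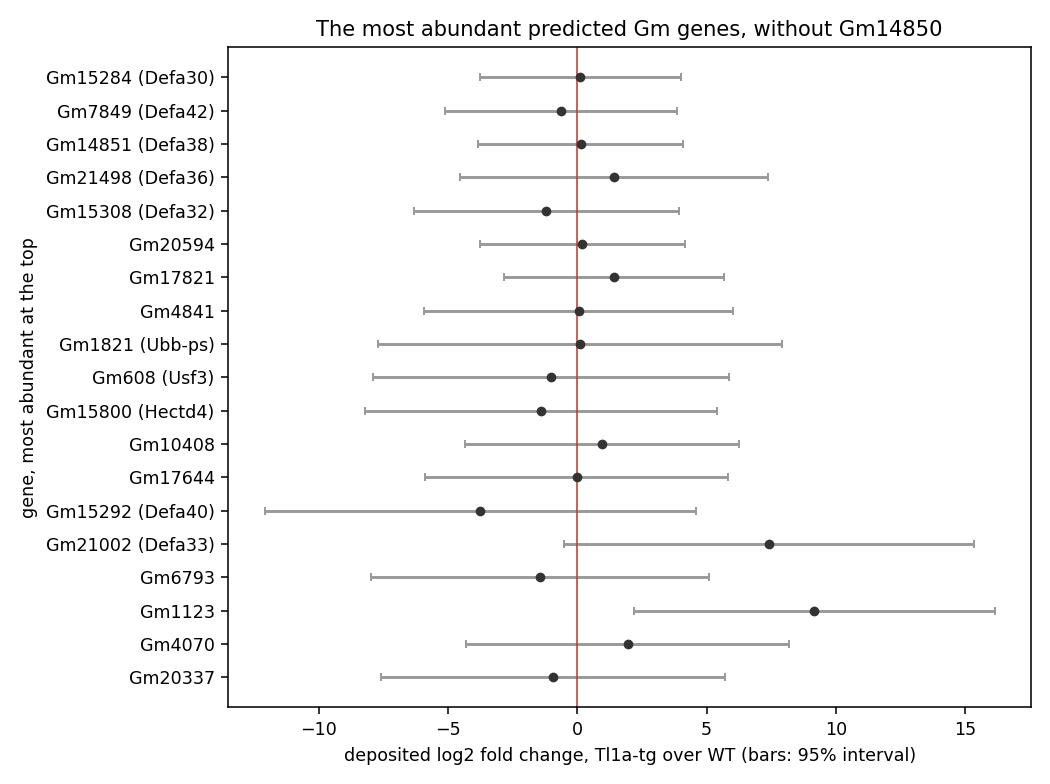
Deposited log2 fold change, Tl1a-tg over WT, with its 95% interval for 19 of the 20 most abundant predicted Gm genes, most abundant at the top. Gm14850 is left out because it is near 0 in Tl1a-tg. The intervals hold 0 except for Gm1123, whose fitted mean in WT is 0.342.

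Across all 135 genes, none of the 32 with an adjusted p-value passed 0.05 in the authors' deposited table (DESeq2), and the smallest was 0.209. Over the whole table, 3.67% of genes with an adjusted p-value passed. With near-0 means set to the floor, none of these 61 genes passed, so the 0 of 32 is not a result about the predicted Gm genes. At an unadjusted p-value below 0.05 there were 4 of 62 genes, against 14.6% of all genes with a p-value. Of these, 2 were larger in Tl1a-tg (10.7% of all genes with a p-value) and 2 were larger in WT (3.91% of all genes with a p-value). All 4 had very low values in 1 genotype, and none of the 19 genes with a p-value that were measured in both genotypes (fitted mean of at least 10 in each) was below 0.05. The same held for all 828 such genes of the whole table. The smallest p-value was 0.378 among those 19, for Gm15292, and 0.103 among the 828 (DESeq2).

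The 4 genes are as follows. Gm1123, a protein-coding gene, had signals of 197, 215 and 153 in the Tl1a-tg libraries, against 0.457, 0.202 and 0.498 in the WT libraries, and the authors' deposited table gave a log2 fold change of 9.16 ± 3.55 (SE, DESeq2, adjusted p-value 0.209). Gm14288, also protein-coding, was at 85.5 in Tl1a-tg and at the floor in WT (adjusted p-value 0.230 in the authors' deposited table, DESeq2). The non-coding Gm20597 had 0.375 in Tl1a-tg, against 145 in WT, and the non-coding Gm10845 had 0.645 in Tl1a-tg, against 63.9 in WT. Both had an adjusted p-value of 0.230 in the authors' deposited table (DESeq2). Next by p-value, larger in Tl1a-tg, came the non-coding Gm16702 with 118 in Tl1a-tg, against 1.30 in WT, Gm15545 with 66.9 in Tl1a-tg and the floor in WT, and Gm11974, now Snhg15, a host gene of small nucleolar RNAs, with 49.5 in Tl1a-tg and the floor in WT. Larger in WT were Gm10440 (floor in Tl1a-tg, 10.1 in WT), Gm4925 (floor in Tl1a-tg, 8.51 in WT) and Gm10548 (0.622 in Tl1a-tg, 16.4 in WT).

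Of the 135 genes, 46 were read in both genotypes, 34 in Tl1a-tg only, 29 in WT only and 26 in neither. As shares, 34.1% were read in both, 25.2% in Tl1a-tg only, 21.5% in WT only and 19.3% in neither. Over all 7120 genes these shares were 34.4% in both, 31.4% in Tl1a-tg only, 16.3% in WT only and 17.9% in neither, and the difference was not tested. Some values counted as read lie just above the floor and recur between genes, such as 0.375 in Tl1a-tg for Gm20597, Gm12669 and Gm20257. With a higher limit they would count as not read. Genes read in Tl1a-tg only were led by Gm14288, Gm8979 (71.7), Gm15545, Gm19757 (57.8) and Gm15417 (56.3), and genes read in WT only by Gm14850, Gm10791 (110.3), Gm6696, Gm9855 (now Tdg-ps2, 62.9) and Gm15441 (59.9). No fold is given for them. The alpha-defensin genes were read in both genotypes for 8 of 10, against 9 of 47 non-coding RNA genes, 12 of 29 pseudogenes, 9 of 28 genes still listed as protein-coding and 8 of 20 genes with another current symbol. Non-coding RNA genes were read in Tl1a-tg only for 13 and in WT only for 16. These 47 genes summed to 743 in Tl1a-tg, against 982 in WT, the 29 pseudogenes to 1189 in Tl1a-tg, against 1018 in WT, and the 28 protein-coding genes to 2113 in Tl1a-tg, against 1375 in WT.

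**Figure D5:**
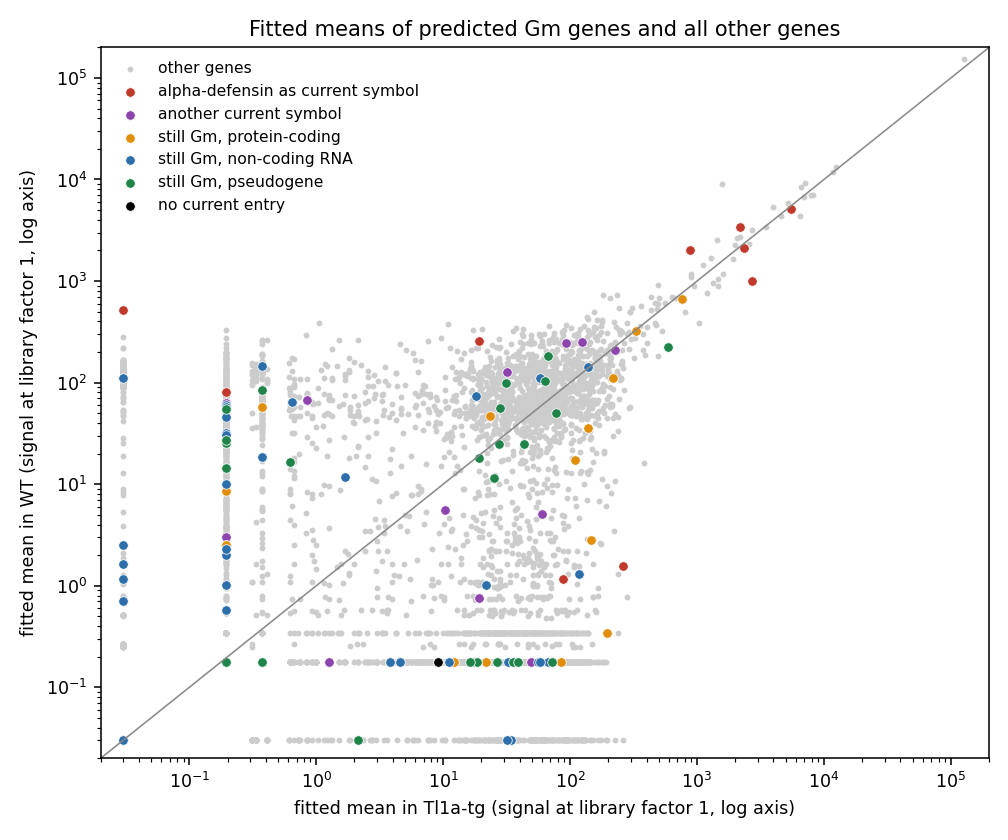
Fitted mean in Tl1a-tg (horizontal, log axis) against WT (vertical, log axis), with all other genes in grey and predicted Gm genes coloured by their current annotation; values below 0.03 are drawn at 0.03 and the line marks equal values. The 5 most abundant alpha-defensin genes lie at the upper right, and rows of points at the lower and left edges are genes read in 1 genotype only or in neither.

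The 29 genes measured in both genotypes split into 15 above 0 and 14 below 0 by log2 fold change, with a median of 0.05 and a range from -3.75 to 2.65. Over all 1379 genes measured in both, 512 were above 0 and 867 below 0, with a median of -0.38. This sign depends on the filter: with a mean over both genotypes of at least 10, which also keeps genes read in 1 genotype only, 2521 of all genes were above 0 and 2017 below 0, with a median of 0.68. The predicted Gm genes then split into 39 above 0 and 34 below 0, with a median of 0.09. The median standard error was 3.51 for the 29 genes and 3.93 for all. The upper end was held by the protein-coding Gm20172 (110 in Tl1a-tg, 17.5 in WT), then Gm4070 and Gm21498. The lower end was held by Gm15292, then the non-coding Gm19434 (18.2 in Tl1a-tg, 73.8 in WT) and Gm14420, now the zinc finger gene Zfp970 (31.8 in Tl1a-tg, 127 in WT). For 97 of the 135 genes (71.9%), and 76.4% of all genes, the dispersion behind the standard error lay at a ceiling of 13, so these standard errors follow from the ceiling and the fitted mean. The deposited mean over libraries does not follow from these 6 libraries for most genes, so it is not known whether the deposited errors rest on these libraries alone.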

How the data were processed

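Ileal crypt RNA of 3 Tl1a-tg and 3 WT libraries was analysed from the authors' deposited tables. Per the submitters' processing notes the authors used DESeq2, RSEM 1.2.15, Bowtie2 2.1.0, Trimmomatic and FastQC, with no order given, and the genome build is not given in the sources used here. The deposited signal per gene and library is 1 fitted mean per genotype times a library factor, shown by equal ratios over genes (relative range 1.63e-14 in Tl1a-tg). The planned limma test for replicate values was therefore not applicable. The authors' deposited log2 fold changes, standard errors, Wald scores, p-values and adjusted p-values from DESeq2 were used as given, and missing values stayed missing. Of the 135 genes, 62 had a p-value, and the reason for its absence in the others is not given. A deposited table of log2 fold changes shrunken by apeglm was used as an alternative.

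Fitted means were computed by dividing signal by the library factor, scaled to a geometric mean of 1. Sums, medians, lengths and sequence comparisons were computed with Python 3.11.15, numpy 2.4.6 and pandas 2.3.3, and the scripts were tested on simulated data. Current names came from RefSeq (GRCm38.p6), promoters from RefSeq, transcripts and coding sequences from GENCODE M21. Named are the 20 most abundant genes, those with a Defa symbol, in each direction the 5 with the smallest p-value and the 5 highest read in 1 genotype only, and the 3 highest and 3 lowest fold changes among measured genes. The members, marker lists and rules were chosen with earlier results of these data known. Alternatives were another minimum, near-0 means set to the floor, centring, apeglm, leaving out Rn45s and ranking by the deposited mean. No counts were used, so no counting interval is given.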

Additional observations from a re-analysis of the deposited data

How the results depend on the processing

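No paired analysis was possible because the deposited signal holds 1 fitted mean per gene and genotype, with no spread between replicates. Leaving out each replicate and a fit with the replicate number as a block were not run for the same reason. The number of predicted Gm genes past an adjusted p-value of 0.05 was 0 as deposited, with near-0 means set to the floor, at a threshold of 0.1 and in the apeglm table (DESeq2), and 4 had an unadjusted p-value below 0.05 in the first 2 of these. With near-0 means at the floor, no gene of the whole table passed, and the smallest adjusted p-value was 0.248. Genes measured in both genotypes numbered 17 at a minimum of 50 and 37 at a minimum of 1, against 29 at 10. Their median log2 fold change of 0.05 became 0.43 with the all-gene median of -0.38 set to 0, and was -0.63 over the 11 genes whose current name differs, 6 of them alpha-defensins. Without Rn45s, the ribosomal RNA precursor, the share of the fitted total was 5.28% in Tl1a-tg and 4.98% in WT. Of the 20 most abundant genes, 12 were also among the 20 highest by the deposited mean, and 16 by level per length, an alternative added after the data were seen. The median without alpha-defensin symbols and the sums over near-identical genes were also added then. Of the 40 named genes, 39 kept their direction under apeglm and under centring. Under apeglm their log2 fold changes shrank, the largest in size being -0.34 for Gm10845, against -6.63 as deposited. Gm1123 went from 9.16 to 0.30. A direction kept under such shrinkage does not show a stable size. Gm17644 reversed, from -0.03 to 0.0032 (apeglm) and 0.35 (centring). The cause was not tested. With unknown depth, the values of genes near the floor are limited by how few reads they may rest on.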

Other observations

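The deposited mean over libraries did not follow from these 6 libraries. For 2103 of 7120 genes, the fitted means summed over the 6 libraries came within 2% of 45 times the deposited mean, the most frequent multiple. Taking that multiple as 100%, the 10 alpha-defensin genes reached 46.8% to 99.6% with a median of 70.5%, and all genes had a median of 56.5%. Of the other 125 predicted genes, 44 were under 10%. Gm17821 reached 4.65%, and Gm10408 reached 2.41%. Gm20753 had a mean of 646 in the authors' deposited table, while its fitted mean was near 0 in Tl1a-tg and 1.17 in WT. Gm13497 had a mean of 346 in the authors' deposited table and was near 0 in both genotypes. These 4 genes were chosen after their values were seen.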
